A study of Rattus norvegicus with 36 samples.

Results

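The kinesin superfamily was followed through the differentiation and dedifferentiation of a rat atrial muscle cell line. Every row of the deposited gene table whose symbol begins with Kif and a digit or a c was taken, which gave 34 of 12943 rat genes. Of these, 33 are kinesins and 1, Kif1bp, encodes a kinesin binding protein that is not a motor. The kinesins were placed by textbook role into 9 mitotic kinesins (Kif2c, Kif4a, Kif11, Kif15, Kif18a, Kif18b, Kif20a, Kif20b and Kif23), 3 other kinesins of cell division (Kif14, Kif22 and Kifc1), 14 transport kinesins (Kif1a, Kif1b, Kif1c, Kif3a, Kif3b, Kif3c, Kif5a, Kif5b, Kif5c, Kif13a, Kif13b, Kif16b, Kifc2 and Kifc3) and 7 kinesins of microtubule dynamics, cilia or signalling (Kif2a, Kif7, Kif21b, Kif24, Kif26a, Kif26b and Kif27). Another 9 kinesins that the placing knew (Kif2b, Kif4b, Kif6, Kif9, Kif12, Kif17, Kif19, Kif21a and Kif25) are not among the rows used here.

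The cells are iAM-1, a line of atrial myocytes of newborn Wistar rats that is conditionally immortalised. Doxycycline at 100 ng/ml keeps them dividing and its withdrawal lets them differentiate. The 36 libraries fall into 9 days of 4: D0 is dividing cells in doxycycline. The days D1 to D3 and D9 follow its withdrawal, and the days D10 to D12 and D18 follow its return after D9. All libraries come from 1 cell line in the same medium with 2% serum, and no label tells whether cultures differed within a day. The p-values therefore reflect scatter among libraries of the same day, which may be technical. In the main fit this scatter is pooled over all 9 days.

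Kinesins are motors that turn the energy of ATP into steps along microtubules. In a dividing cell, a set of them builds the spindle, aligns and separates chromosomes and organises the midzone where the daughter cells part. In a resting muscle cell, other members carry mitochondria, vesicles, mRNA and membrane proteins, usually towards the outward-facing ends of microtubules, while dynein carries cargo the other way. Mitotic kinesins are made periodically, and their genes are known targets of the cell-cycle regulators that act through CCAAT boxes and through elements named CHR.

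Expression is given as CPM, reads per 1000000 of an effective library size, and levels are compared between genes only as TPM, transcripts per 1000000, which allow for gene length. The deposited CPM values were found to be whole reads plus an offset of 0.5 read, so a gene without reads is listed slightly above 0. With the offset taken off, libraries held 14.9 to 43.1 M reads (median 18.5 M, where M is 1000000), and 1 read was worth 0.0211 to 0.0721 CPM. Summed CPM of 7 atrial muscle markers ran from 12470 to 13630 at D0, from 85330 to 93300 at D9 and from 19560 to 24130 at D18, so markers of the labelled cell type were present on these days. Summed CPM of the 4 listed fibroblast markers was 251.6 to 272.2 at D0, 5.89 to 8.15 at D9 and 7.80 to 12.0 at D18, and that of 3 smooth muscle markers 4631 to 4803, 9124 to 10840 and 3725 to 4535. Of the endothelial markers only Kdr was listed, at 15 to 20.4 CPM at D0, 247 to 286 at D9 and 185 to 206 at D18. The part of these cell types in the results was not tested. The row of the transferred large T antigen had a mean of 2956 CPM at D0, 32.0 at D9 and 4950 at D18. The median standard deviation (SD, log2) of the 12 cell-division kinesins was 0.543 at D11 and 0.29 at D10, and lay between 0.0436 at D1 and 0.206 at D9 on the other days, with 0.164 at D12. Comparisons among D0, D9 and D18 are also given from a fit without D10, D11 and D12 where that changed a call.

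Proximal promoters were available for 25 of the 34 genes in RefSeq's annotation of the GRCr8 assembly, as 300 bases from 250 before to 50 after the annotated start. They are shown for genes of the spindle midzone, which fell and returned together, and for Kif1c, the transport kinesin with the highest level at D9. The sequences run 5′ to 3′ on the strand of the gene, and capitals mark CCAAT boxes (CCAAT, or ATTGG on the other strand) and the letters of the CHR element (TTTGAA, or TTCAAA on the other strand). The coordinates in GRCr8 are chr18:26504172-26504471 on the plus strand for Kif20a, chrX:69761633-69761932 on the plus strand for Kif4a, chr1:241840766-241841065 on the plus strand for Kif20b, chr8:71320535-71320834 on the minus strand for Kif23 and chr10:55912843-55913142 on the plus strand for Kif1c.
Kif20a: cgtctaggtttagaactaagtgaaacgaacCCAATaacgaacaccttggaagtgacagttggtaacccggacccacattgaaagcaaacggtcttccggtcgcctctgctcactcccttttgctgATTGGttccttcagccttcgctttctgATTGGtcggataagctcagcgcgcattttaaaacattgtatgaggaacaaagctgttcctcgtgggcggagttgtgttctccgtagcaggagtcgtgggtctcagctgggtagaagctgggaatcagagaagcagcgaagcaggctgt
Kif4a: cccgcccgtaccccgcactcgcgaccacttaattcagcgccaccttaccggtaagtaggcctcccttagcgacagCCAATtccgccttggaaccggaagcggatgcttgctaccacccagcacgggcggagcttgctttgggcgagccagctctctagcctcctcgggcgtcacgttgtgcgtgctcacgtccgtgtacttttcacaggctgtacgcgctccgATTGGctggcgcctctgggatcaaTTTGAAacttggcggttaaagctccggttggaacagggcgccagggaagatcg
Kif20b: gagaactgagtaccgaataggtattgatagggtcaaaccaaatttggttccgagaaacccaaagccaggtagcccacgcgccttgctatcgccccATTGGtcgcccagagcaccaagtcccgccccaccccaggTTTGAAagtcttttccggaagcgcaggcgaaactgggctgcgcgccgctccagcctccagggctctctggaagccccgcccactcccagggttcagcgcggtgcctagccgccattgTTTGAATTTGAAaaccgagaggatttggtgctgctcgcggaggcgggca
Kif23: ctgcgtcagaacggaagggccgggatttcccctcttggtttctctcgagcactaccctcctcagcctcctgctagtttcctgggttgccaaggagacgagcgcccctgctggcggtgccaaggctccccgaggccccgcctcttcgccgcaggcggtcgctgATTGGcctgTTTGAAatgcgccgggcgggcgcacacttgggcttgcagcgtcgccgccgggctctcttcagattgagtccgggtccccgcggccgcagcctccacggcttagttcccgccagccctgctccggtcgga
Kif1c: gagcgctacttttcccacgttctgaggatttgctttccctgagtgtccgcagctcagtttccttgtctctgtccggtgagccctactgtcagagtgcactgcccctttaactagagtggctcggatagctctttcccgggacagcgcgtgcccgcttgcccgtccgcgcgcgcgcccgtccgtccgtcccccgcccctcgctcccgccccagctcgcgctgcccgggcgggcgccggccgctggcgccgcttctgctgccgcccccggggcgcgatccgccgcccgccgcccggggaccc

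A CCAAT box on either strand was present in 7 of the 11 matched cell-division kinesins (Kif11, Kif20a, Kif20b, Kif22, Kif23, Kif4a and Kifc1), in 3 of the 10 matched transport kinesins (Kif1b, Kif3b and Kif5b) and in 37.5% of all 33469 promoters of the table. The CHR letters were present in 6 of the 11 (Kif15, Kif20b, Kif22, Kif23, Kif4a and Kifc1), in 0 of the 10 and in 18.3% of all promoters. A CCAAT box and the CHR letters may share a base at their ends, and 0 of the 25 genes had such an overlap. In Kif23 the CCAAT box began 88 bases and the CHR letters 79 bases before the start. These are matches of the exact letters in a fixed window. Variants of either element were not searched, and binding was not measured.

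All 9 mitotic kinesins fell when doxycycline was withdrawn and rose when it returned. Kif20a, a midzone motor that cytokinesis needs, stood at 240, 235, 245 and 247 CPM in the 4 libraries of D0. It stood at 0.314, 0.613, 0.567 and 0.58 CPM at D9, which is 4 to 12 reads a library. At D18 it stood at 271, 263, 273 and 305 CPM. The D9 libraries lie far below both other days, without overlap, and every D18 library is above every D0 library. Kif20a fell by 7.90 (log2, SE 0.17) from D0 to D9, with an adjusted p of 2.19e-28 by limma, which was fitted to log2(CPM + 0.5) over all 12487 rat genes that passed the filter, with Benjamini-Hochberg adjustment. Without the offset, the mean at D9 was 0.202% of that at D0.

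Kif20a rose by 8.10 (SE 0.17, limma adjusted p 6.89e-29) from D9 to D18. From D0 to D9, 0 mitotic kinesins were called higher and 9 lower, with a median of -6.67. Over all genes tested 37% were called lower and 34.4% higher, with a median change of -0.02. From D9 to D18, 9 of 9 were called higher, with a median of 7.32, against 33.6% of all genes higher and 32.5% lower. The same counts of 9 came from every scaling, filter and count model tried for these comparisons. In bulk RNA, fewer cells that express a gene and less RNA per cell cannot be told apart.

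**Figure D1:**
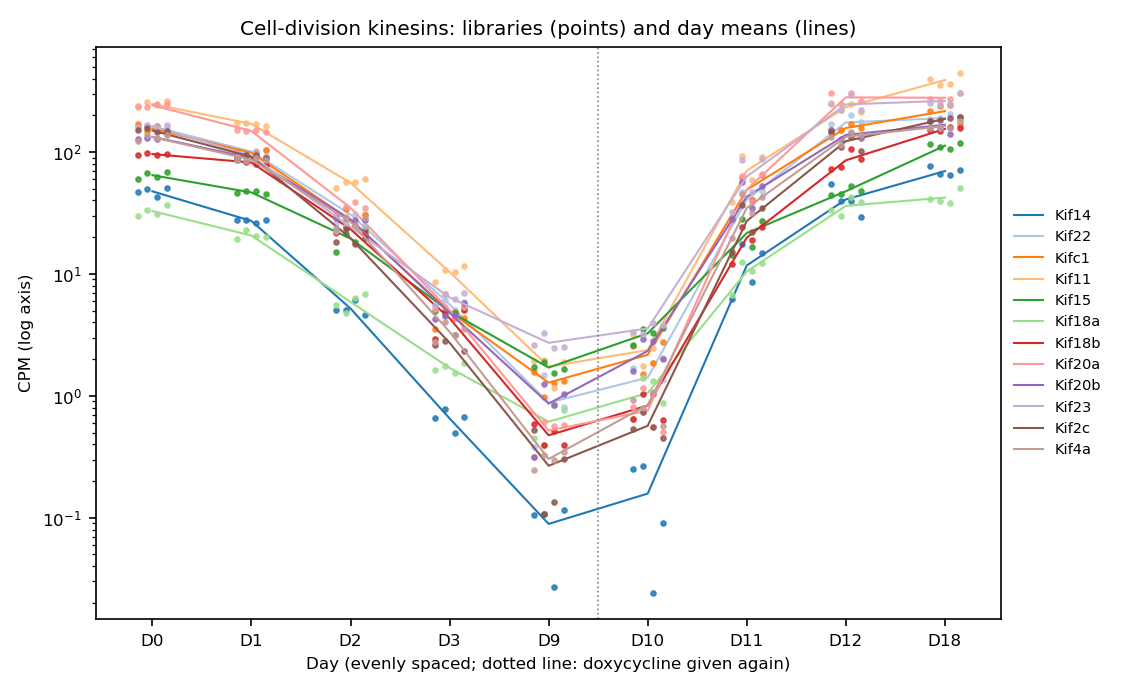
CPM (log axis) of the 12 cell-division kinesins on 9 days, drawn at even spacing; points are libraries, lines join the means of 4 libraries and the dotted line marks the return of doxycycline. All 12 lines fall to their lowest mean at D9. At D12 they lie between 73.9% (Kif15) and 151% (Kif23) of the D0 mean, without the offset. Kif20a goes from a mean of 241.75 CPM at D0 to 0.52 at D9.

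The motors of the midzone and cytokinesis fell to different floors. Kif4a, a chromokinesin that also sets the length of midzone overlaps, changed by -7.37 from D0 to D9 (limma adjusted p 1.75e-28), and its 4 libraries at D9 held 3 to 7 reads each. Kif20b, which acts in the completion of cytokinesis, changed by -6.67. Kif23, the motor subunit of the centralspindlin complex, changed by -5.67 and kept 2.46 to 3.28 CPM, 37 to 54 reads, in every library of D9. Its mean was 2.72 CPM at D9 and 3.56 CPM at D10. Kif14, which recruits citron kinase to the midbody, was placed outside the mitotic list. It changed by -6.35 and held 4 reads in all 4 libraries of D9 together. The constant added to CPM before the log shrinks changes of genes low at D9, so their sizes do not rank these genes. Without the offset, the D9 mean was 0.123% of D0 for Kif14, 0.206% for Kif4a, 0.627% for Kif20b and 1.66% for Kif23.

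Kinesins that build the spindle or act on chromosomes fell too. Kif11, the motor that pushes spindle poles apart, changed by -6.81 from D0 to D9 and by 7.46 from D9 to D18. Kif15, which can share that work, changed least of the 9, by -4.88 (SE 0.14, limma adjusted p 4.97e-25). Its libraries held 60.2, 66.7, 62.8 and 68.1 CPM at D0, 1.71, 1.91, 1.54 and 1.65 CPM at D9, and 116, 109, 106 and 119 CPM at D18. The D9 values lie below all others and the D18 values above all of D0. Kif2c, which takes tubulin off microtubule ends at centromeres, changed by -7.65. Kif18a and Kif18b, which restrain microtubule growth in mitosis, changed by -4.92 and -6.64. The chromokinesin Kif22 changed by -6.94 and the minus-end motor Kifc1, which focuses spindle poles, by -6.46.

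The fall was stepwise. From D0 to D1, 8 of the 9 mitotic kinesins were called lower and Kif18b, at -0.23, was not. That comparison called 4.36% of all genes lower and 7.91% higher, and the mitotic median was -0.61. Leaving out 1 library of D0 or D1 lowered the count to 5 or 6 of 9. Kif20a stood at 150, 148, 151 and 145 CPM at D1, below all libraries of D0. From D1 to D2 all 9 were called lower with a median of -1.73, where 20% of all genes were lower and 21.6% higher. From D2 to D3 all 9 were again lower, with a median of -2.38, where 9.68% of all genes were lower and 2.92% higher. From D3 to D9 all 9 were lower once more, with a median of -2.10, against 25% of genes lower and 18.4% higher. Kif20a held 30.2, 35.5, 38.9 and 34.6 CPM at D2 and 5.13, 5.38, 4.38 and 5.32 CPM at D3. Its mean without the offset was 61.4% of D0 at D1, 14.4% at D2 and 2.08% at D3.

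At D10, 1 day after doxycycline was given again, the changes of all 9 mitotic kinesins were positive, but few were called. They ran from 0.28 to 1.08, with a median of 0.47 against 0.02 over all genes. From D9 to D10, Kif15, Kif20b and Kif4a were called higher and the other 6 were not, in a comparison that called 2.36% of all genes higher and 1.27% lower. Kif20b changed by 1.08 and Kif20a, at 0.809, 1.15, 0.554 and 0.508 CPM at D10, overlapped its D9 libraries. A fit of these 2 days alone called 1 of 9, and a pseudocount of 0.1 called 6 of 9. The large T antigen row had by then risen from 32.0 to 417.2 CPM. From D10 to D11 all 9 were called higher, with a median of 3.91, against 15.7% of genes higher and 9.84% lower. From D11 to D12 all 9 were higher again, with a median of 1.99, against 18.7% higher and 21.3% lower.

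At D11 the 4 libraries were not alike, either in the kinesins or across genes as a whole. Kif20a stood at 28.4, 63, 38.6 and 66.4 CPM in libraries 1 to 4. All 12 cell-division kinesins had their highest values in libraries 2 and 4, and summed TPM of the 9 mitotic kinesins ran from 100.3 to 237.4. The large T antigen row stood at 1705, 2361, 2035 and 2420 CPM in libraries 1 to 4. Its part in the difference was not tested.

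At D12 the mitotic kinesins were near their D0 level, but not all alike. Against D0, Kif23 was called higher (0.58), Kif15 lower (-0.43), and the other 7 were not called. Over all genes this comparison called 27.7% higher and 23.8% lower. Kif20a at D12 was 307, 246, 305 and 263 CPM, with the lowest library just inside the upper end of D0. Kif15 at D12 was 44.4, 45.1, 52.8 and 48.2 CPM, all below D0. From D12 to D18, 4 of the 9 were called higher and none lower, with a median of 0.30, where 25.4% of all genes were higher and 23.5% lower. On the TPM scale that count was 7 of 9.

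By D18 the mitotic kinesins stood at or above their D0 level. Kif15 (0.80), Kif23 (0.68), Kif18b (0.68) and Kif11 (0.65) were called higher than at D0, against 28.7% of all genes higher and 23.2% lower, and the list had a median of 0.36 beside 0.06 over all genes. Changes of the other 5 lay between 0.20 for Kif20a and 0.36 for Kif18a and were not called. In a fit of D0 and D18 alone, and in the fit without D10, D11 and D12, 9 of 9 were called higher, so these 5 calls depend on the spread taken from the other days. Kif14 (0.55) and Kifc1 (0.46) were also called higher, and Kif22 (0.22) was not. The call of Kif14 was lost without library 3 of D0 (limma adjusted p 0.0507), and that of Kifc1 when any of 6 libraries was left out (D0 2, 3 and 4, D18 1, 2 and 3; limma adjusted p 0.0555 to 0.104).

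**Figure D2:**
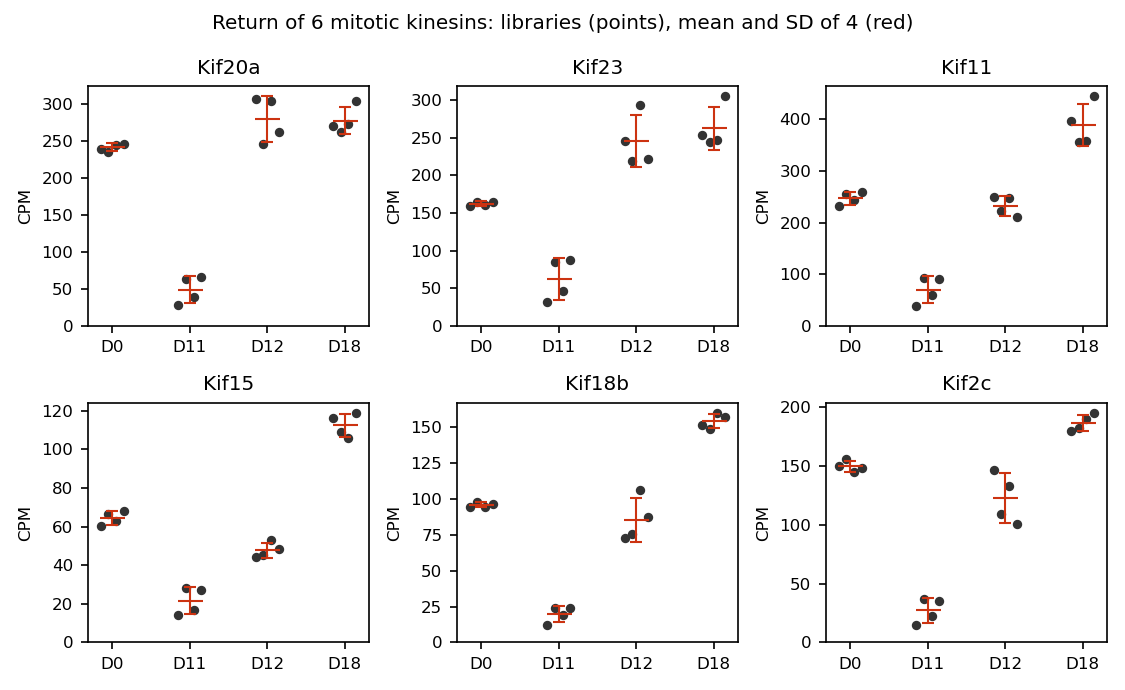
CPM of 6 mitotic kinesins at D0, D11, D12 and D18, each panel from 0; black points are the 4 libraries of a day, and the red mark and bar are their mean and SD. Kif23 is already above D0 at D12, Kif15 is below it at D12 (44.4 to 52.8 CPM) and above it at D18 (106 to 119 CPM), while Kif20a at D12 (246 to 307 CPM) reaches down to its D0 range.

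The proportions among mitotic kinesins were compared as the log2 ratio of each cell-division kinesin to Kif20a, which is free of library scaling. Between D0 and D12 the mean ratio of Kif23 changed by 0.38, that of Kif15 by -0.64 and that of Kif2c by -0.51. Only the ratio of Kif23 rose between these days, and all ratios share Kif20a. Between D0 and D18 the ratio of Kif15 changed by 0.60. With 4 libraries against 4 the smallest p of the exact two-sided permutation test is 0.0286, and over the 33 ratios tested the smallest adjusted p was 0.0629, so 0 of the 33 passed. An adjusted p under 0.05 would need many ratios at that smallest p together, so the test could not decide on a few genes. For the genes named, the ratios of the 2 days did not overlap.

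Partners that do not carry the symbol Kif gave a comparison from lists of textbook role. All 10 genes of the spindle midzone and cytokinesis were called lower from D0 to D9, with a median of -5.83, and all 10 higher from D9 to D18, with a median of 6.27. Over all genes, 37% were lower in the first comparison and 33.6% higher in the second. Ect2, the activator of RhoA that centralspindlin recruits, changed most, by -7.06 (limma adjusted p 1.80e-25), from 196.5 to 1.05 CPM. Incenp, the scaffold of the chromosomal passenger complex, changed least, by -4.04, from 152.5 to 8.92 CPM. Of 11 rows for spindle assembly, in which the symbol Spag5 occurs in 2 rows, 10 were lower at D9, beside the same 37%. The largest change was that of Cenpe, itself a kinetochore motor of the kinesin superfamily under another name, at -6.50. The exception was Numa1, which ties dynein to spindle poles and is also in the nucleus between divisions. Numa1 rose by 0.51 to a mean of 397.6 CPM.

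Over the 9 day means of log2(CPM + 0.5), the genes outside the family most like Kif20a were Ect2 (Pearson r 0.9996), Cenpf (0.9986), Cdk1 (0.9981), Plk4 (0.9981) and Depdc1 (0.9973). Cdk1 is the kinase that drives entry into mitosis, Cenpf a kinetochore protein and Plk4 the kinase of centriole duplication. Within the family, r to Kif20a was 0.982 or more for all 11 other cell-division kinesins. It was 0.972 for Kif24 and 0.978 for Kif2a, and between -0.92 for Kif1b and 0.843 for Kif3a in the transport class. These values describe 9 points that share libraries.

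**Figure D3:**
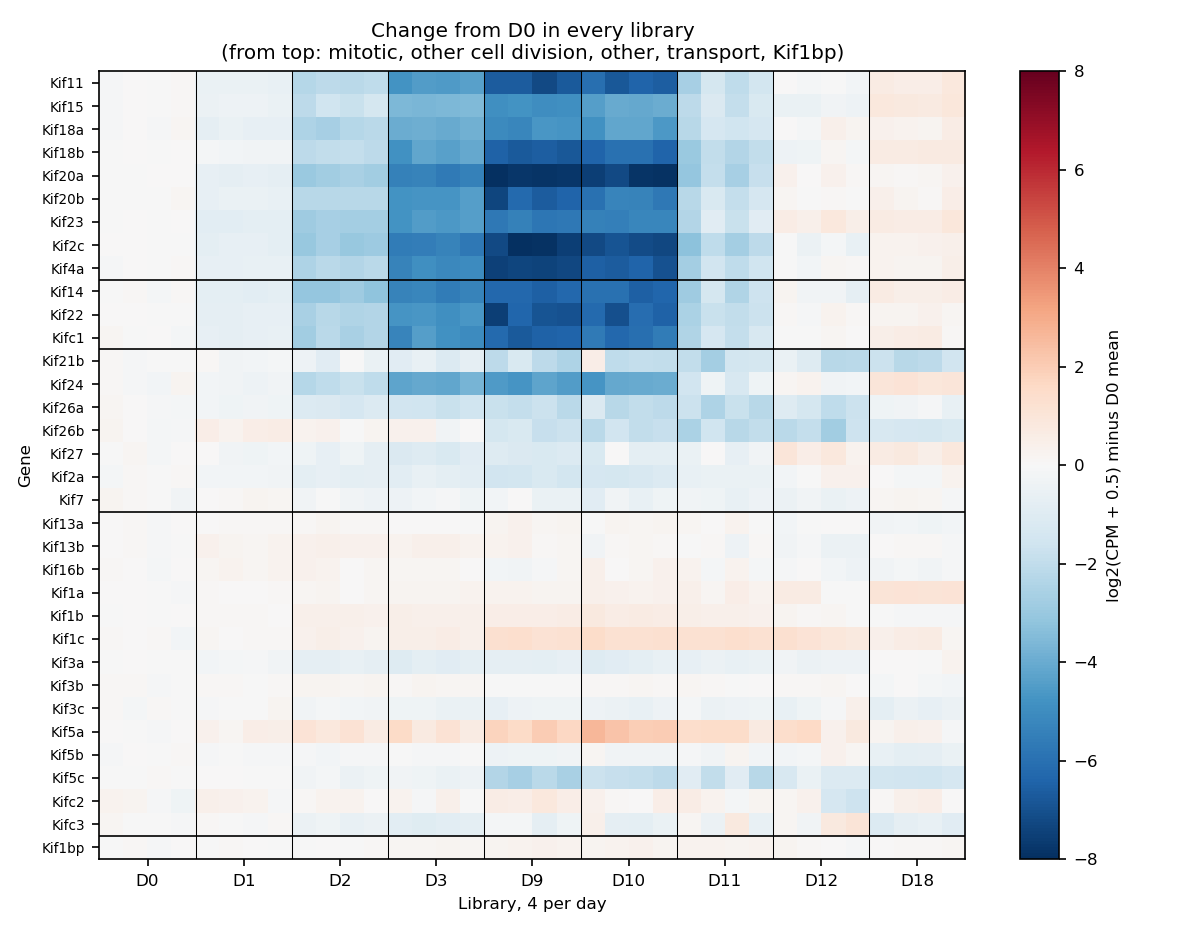
log2(CPM + 0.5) minus the mean of D0 for the 34 genes (rows, grouped from the top as mitotic, other cell division, other, transport and Kif1bp) in the 36 libraries (columns, 4 per day). The upper 2 blocks turn dark blue through D3, D9 and D10, with Kif24 alike below them, while most transport kinesins are paler, with Kif5c (-2.44 at D9), Kif5a (1.76) and Kif1c (1.25) the furthest from D0 at D9; library 1 of D10 stands apart for Kif21b.

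The 14 transport kinesins did not share a direction. From D0 to D9, 7 were called higher, 4 lower and 3 not, in the comparison that called 34.4% of all genes higher and 37% lower, and the median was 0.11 against -0.02 over all genes. On the TPM scale the median of all genes moved to -0.35, and there, of the 13 transport kinesins that passed the filter, 2 were higher and 7 lower with a median of -0.35. Relative to all genes the class as a whole was thus near 0 on both scales. Kif13a (0.24), Kif13b (0.23) and Kif1a (0.24) were called higher by CPM and had changes of -0.10 each by TPM, which did not pass the test.

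Of the Kif1 genes, Kif1c and Kif1b rose to D9 and were lower again at D18. Kif1c, a carrier of dense-core vesicles and integrins, stood at 305, 290, 299 and 242 CPM at D0, at 677, 729, 630 and 663 CPM at D9, and at 379, 429, 443 and 314 CPM at D18. The D9 libraries are all above those of D0 and D18, and all D18 libraries are above all D0 libraries. Between D9 and D18 the mean of Kif1c was 697.75 CPM at D10, 678.75 at D11 and 578.5 at D12, against 674.75 at D9. Kif1c rose by 1.25 (SE 0.10, limma adjusted p 1.93e-13) and then fell by 0.80 from D9 to D18, remaining 0.46 above D0. Kif1b, which carries mitochondria and synaptic vesicle precursors, stood at 616, 620, 600 and 633 CPM at D0 and at 901, 896, 873 and 937 CPM at D9, without overlap. It was at 601, 583, 589 and 581 CPM at D18. Its highest mean was at D10, 981.75 CPM (935 to 1083), followed by 820.75 at D11 and 671.75 at D12. Kif1b rose by 0.55 (limma adjusted p 2.51e-10) and fell by 0.62, ending -0.07 from D0, which was not called. Under quantile normalization its change from D9 to D18 was -0.09 and was not called. On the TPM scale the rises from D0 to D9 were 0.92 for Kif1c and 0.21 for Kif1b, both past the threshold.

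Kif1a, the neuronal carrier of synaptic vesicle precursors, took another course. It stood at 65.8, 65.5, 62.6 and 60.9 CPM at D0, at 76.2, 75.9, 73.4 and 74.7 CPM at D9 and at 132, 138, 133 and 138 CPM at D18. By CPM the libraries of the 3 days do not overlap, and the highest are those of D18. By TPM the D9 libraries (24.0 to 25.7) lie below those of D0 (25.8 to 27.6), and D18 is again the highest. Kif1a rose by 0.85 from D9 to D18 and was 1.08 (SE 0.10, limma adjusted p 2.75e-10) above D0, the largest rise over D0 among transport and other kinesins. At D12 its libraries were not alike, with a mean of 81 ± 22.4 CPM (SD, n = 4) and values of 99.7 CPM in library 1, 61.9 CPM in library 3 and 61.4 CPM in library 4. Libraries of D12 also differed from each other across genes as a whole. The 0.24 rise from D0 to D9 was not called when any 1 of the 8 libraries was left out.

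The Kif5 genes, which encode the heavy chains of conventional kinesin, moved apart. Kif5b, the ubiquitous heavy chain, was at 387, 414, 400 and 428 CPM at D0, at 313, 326, 327 and 335 CPM at D9 and at 267, 241, 244 and 285 CPM at D18. Each of these days lies below the one before, without overlap, but the days between did not follow that order. The mean was 365.25 CPM at D10, 385.75 at D11 and 418.75 at D12, with D12 libraries from 344 to 510. Without the offset, the D12 mean was 103% of that at D0. Kif5b fell by 0.32 from D0 to D9 and was 0.65 lower at D18 than at D0 (limma adjusted p 2.32e-06). Its change from D9 to D18, -0.33 by CPM, was 0.03 by TPM and -0.07 under quantile normalization, and neither of these was called. Kif5a, a heavy chain known from neurons, was scarce: 0.277, 0.242, 0.213 and 0.272 CPM at D0, 2.12, 1.7, 2.62 and 1.83 CPM at D9 and 0.374, 0.485, 0.446 and 0.204 CPM at D18. The D9 values are above those of D0 and D18, and rest on 140 reads over 4 libraries against 26 at D0. The highest mean was at D10, with 2.48 to 4.32 CPM and 225 reads, and its libraries overlap those of D9. Kif5a rose by 1.76 (SE 0.22, limma adjusted p 2.01e-08) and fell by 1.55. Without the offset its D9 mean was 885% of that at D0, a larger rise than 1.76 gives. Kif5c, also known from neurons, changed by -2.44 from D0 to D9, the largest fall of the class, and by -1.49 from D0 to D18.

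Of the Kif3 genes, whose products form the heterotrimeric kinesin-2 motor of cilia and melanosomes, Kif3a (-0.74) and Kif3c (-0.45) were lower at D9, and Kif3b changed by -0.02, which was not called. Kif3a rose by 0.82 from D9 to D18. Kif3b was called lower from D0 to D18 (-0.13, limma adjusted p 0.0482), a call lost when any of 5 libraries was left out (D0 1 and 2, D18 1, 3 and 4) and by TPM (-0.10). Kif13a and Kif13b, carriers of endosomal cargo, and the endosome motor Kif16b stayed between -0.12 and 0.24 from D0 to D9. The call of Kif13b was lost when any of 4 libraries was left out (D0 3 and 4, D9 1 and 2). The minus-end motors Kifc2 and Kifc3 changed by 0.61 and -0.36, and Kifc3 was not called. The rise of Kifc2 was lost when any of 6 libraries was left out (D0 3 and 4 and all 4 of D9). It was also lost by TPM (0.28) and with a pseudocount of 0.1. By TPM, Kif3b (-0.35), Kif16b (-0.42) and Kifc3 (-0.67) were called lower from D0 to D9. Their limma adjusted p were 7e-05, 9.79e-04 and 0.00825, and the median of all genes on that scale was -0.35. Without D10 to D12, Kifc3 was called lower from D0 to D9 (limma adjusted p 0.00369), and so from D9 to D18 were Kifc3 (-0.47), Kifc2 (-0.34) and Kif13b (-0.20), and from D0 to D18 Kif16b (-0.20) and, of the kinesins of other roles, Kif26a (-0.33). Kif1bp, the binding protein of Kif1 motors, rose by 0.30 by CPM and changed by -0.03 by TPM.

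**Figure D4:**
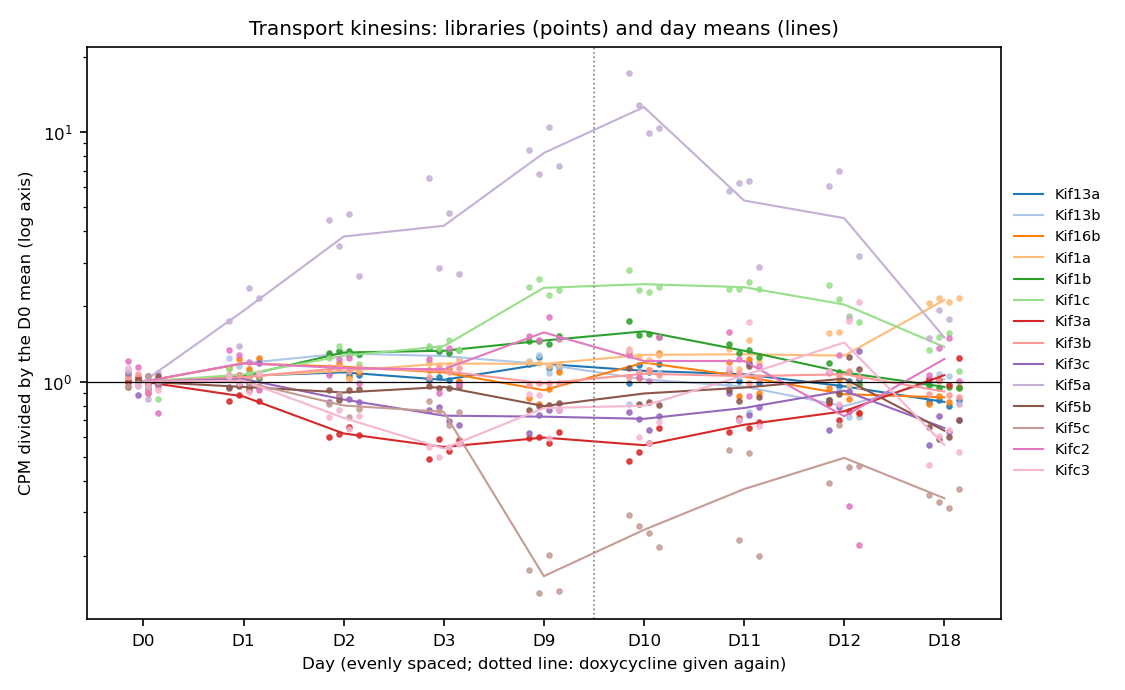
CPM divided by the D0 mean of the same gene (log axis) for the 14 transport kinesins on 9 evenly spaced days; points are libraries, lines join day means and the dotted line marks the return of doxycycline. Most lines stay close to 1; Kif1c rises to D9 and D10, Kif5a rises most but from a D0 level of 0.213 to 0.277 CPM, Kif5c falls at D9 and Kif1a is highest at D18.

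Between neighbouring days, 0 to 13 of the 14 transport kinesins passed the test, and their median lay between -0.22 and 0.08. From D0 to D1, from D2 to D3 and from D9 to D10, 0 of 14 passed. Those comparisons called 7.91%, 2.92% and 2.36% of all genes higher and 4.36%, 9.68% and 1.27% lower. From D1 to D2, 3 rose and 1 fell, where 21.6% of all genes were higher and 20% lower. From D3 to D9, 3 rose and 3 fell, beside 18.4% and 25% of all genes. From D10 to D11, 1 rose and 2 fell, beside 15.7% and 9.84%. From D11 to D12, 1 rose and 5 fell, beside 18.7% and 21.3%. From D12 to D18, 4 rose and 9 fell, beside 25.4% of all genes higher and 23.5% lower. The count from D1 to D2 became 10 of 14 in a fit of these 2 days alone, and that from D11 to D12 became 0 of 14 in the same way. Leaving out library 2 or the unnumbered library of D1, or library 1, 2 or 3 of D2, left 2 calls from D1 to D2. From D11 to D12, 3 calls were left without library 1 or 4 of D11 and 2 without library 3 or 4 of D12. From D9 to D18, 3 rose and 5 fell, with a median of -0.26, beside 33.6% of all genes higher and 32.5% lower. That split became 5 and 2 on the TPM scale, where the median of all genes was 0.34. From D0 to D18, 2 rose and 6 fell (28.7% and 23.2% of all genes), and from D0 to D12, 3 rose and 4 fell (27.7% and 23.8%).

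Among the 7 kinesins of other roles, all were called lower from D0 to D9, with a median of -1.53, where 37% of all genes were lower and 34.4% higher with a median of -0.02. Kif24, which holds back cilium formation at the mother centriole, had the largest fall of the 7. It was at 14.3, 12.7, 11.4 and 15.3 CPM at D0, at 0.105, 0.0361, 0.243 and 0.116 CPM at D9, which is 7 reads in all, and at 26.6, 29.5, 25.1 and 26.8 CPM at D18. D9 is below and D18 above D0, without overlap. Kif24 changed by -4.48 (SE 0.20, limma adjusted p 1.39e-19), rose by 5.47 from D9 to D18 and was 0.99 above D0 at the end. Kif2a, which takes tubulin off microtubule ends outside mitosis as well as in it, changed by -1.41 and then by 1.42, and its change from D0 to D18 was not called and turned sign with the scaling. Kif7, a regulator of Hedgehog signalling at the cilium tip, changed by -0.32 and 0.42, and the first call was lost when any of 4 libraries (D0 1 and 2, D9 3 and 4) was left out. Kif27, a relative of Kif7, changed by -1.12 and 1.80, and had 2 reads in all 4 libraries of D9. Its D9 mean without the offset was 4.17% of that at D0, a larger fall than -1.12 gives.

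Some kinesins of this class did not return. Kif21b, a regulator of microtubule growth known from neurons and immune cells, was at 4.75, 4.14, 4.34 and 4.21 CPM at D0, at 0.662, 1.55, 0.621 and 0.394 CPM at D9 and at 0.945, 0.542, 0.634 and 1.16 CPM at D18. The D9 and D18 libraries overlap and all are below D0. Kif21b was 1.90 lower at D18 than at D0 (SE 0.39, limma adjusted p 1.40e-04, the largest fall of the non-mitotic kinesins), and its change from D9 to D18, 0.06, was not called. Kif26b, a kinesin-like protein without motor activity that acts in cell adhesion and signalling, changed by -1.53 to D9 and was still 1.30 below D0 at D18. Its relative Kif26a changed by -1.88 and then rose by 1.55. From D9 to D18, 5 of the 7 rose and 2 were not called, beside 33.6% of all genes higher and 32.5% lower. From D0 to D18, 2 rose and 2 fell, beside 28.7% and 23.2%.

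The helpers of transport motors were read from lists of textbook role. Of 12 listed genes for kinesin light chains and adaptors, which include Kif1bp, 8 rose, 1 fell and 3 were not called from D0 to D9, where 34.4% of all genes were higher and 37% lower. From D9 to D18, 2 rose and 9 fell, where the shares were 33.6% and 32.5%. Klc4, a light chain of conventional kinesin, rose by 1.82 (limma adjusted p 2.07e-08), from 28.45 to 101.7 CPM. The adaptor Mapk8ip1 changed by 0.01, from 81.5 to 81.95 CPM, and was not called. Of 23 genes of cytoplasmic dynein and dynactin, 6 rose and 6 fell from D0 to D9, beside the same 34.4% and 37% of all genes. The dynein light chain Dynlt1 fell from 53.4 to 23.4 CPM (-1.18), and Dctn1, the large dynactin subunit, changed by 0.03. Of 16 genes of intraflagellar transport, the cargo trains of kinesin-2, 5 rose and 3 fell in that comparison. Ift81, which binds tubulin, rose by 1.10, and Ift122 changed by 0.03. The counts of these lists are by CPM and were not made by TPM. By TPM the median of all genes from D0 to D9 was -0.35, and Kif1bp changed by -0.03.

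Read by TPM, the make-up of kinesin transcripts turned over. The 12 cell-division kinesins held 56.8% ± 0.48 (SD, n = 4) of kinesin TPM at D0. Their share was 45.6% a day later, 18.8% at D2, 3.95% at D3 and 0.745% ± 0.047 at D9. With doxycycline back it was 1.17% at D10, 21.7% ± 6.81 at D11 and 53.5% at D12, and it ended at 65.0% ± 1.06 on D18. D11 libraries ran from 14.1% to 27.5%. The summed TPM of the 14 transport kinesins stayed between a mean of 669.2 at D2 and 846.7 at D12, while that of the 9 mitotic kinesins went from 794.3 at D0 to 4.39 at D9 and 1111 at D18.

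**Figure D5:**
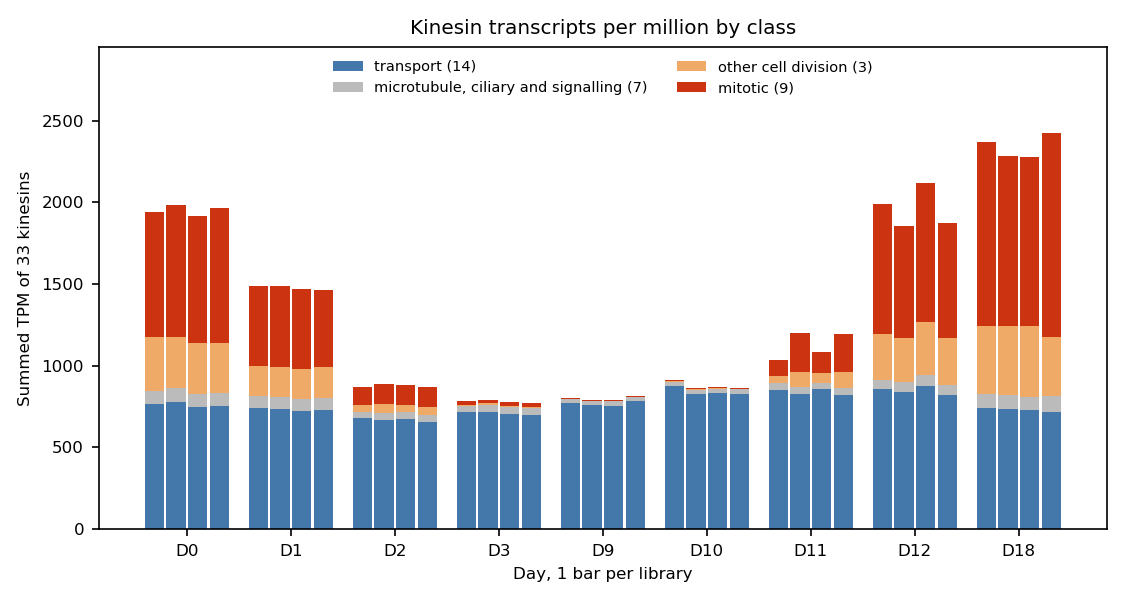
Summed TPM of the 33 kinesins by class, 1 stacked bar per library and 4 bars per day, from 0. The transport part (blue) keeps a similar height on all days, while the mitotic (red) and other cell-division (orange) parts are small from D3 to D10 (0.745% of kinesin TPM at D9), differ between libraries at D11 and are highest at D18.

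The order of the genes changed with it. At D0 the highest mean TPM was that of Kif5b (293.6), followed by Kif20a (199), Kif1c (167.2) and Kif22 (165.2). Libraries of Kif1c and Kif22 overlapped, and those of Kif5b and Kif20a did not. At D9 the highest were Kif1c (314.6), Kif5b (186) and Kif1b (110.4), with no overlap between neighbours. At D18 they were Kif1c (233.8), Kif20a (232.7) and Kif11 (200.7), whose libraries overlapped, so their order was not settled.

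Counting could mix some of these genes with neighbours. In the GRCr8 gene table, protein-coding genes overlap Kif20a (Cdc23), Kif11 (Ide), Kif15 (RGD1311745), Kif18a (Mettl15), Kif4a (Pdzd11), Kif2a (Dimt1), Kif7 (Ticrr), Kif3c (Asxl2), Kifc2 (Foxh1) and Kif27 (Kif27l1). The kit kept strand, but whether counting used it is not given in the sources used here, so reads of such pairs may not be told apart.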

How the data were processed

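RNA of 36 iAM-1 samples on 9 days, 4 a day, was sequenced after poly(A) selection with a directional kit as paired reads of 150 bases, per the labels' protocols. The submitters' processing notes name Rnor_6.0 and edgeR 3.26.8 without a role. Neither aligner nor counter is named in the sources used here. The table the authors deposited as CPM holds a signal per gene, which the values show to be reads plus 0.5, divided by an effective library size and multiplied by 1000000. Its columns sum to 868992 to 1136457. The offset was read from the values, since all 48358 low values were odd multiples of 1 step and 0 were even, where a step is 0.5 read. After the offset was taken off, 100% of low values (20 reads or fewer) lay within 0.1 of a whole number, and 3793 of 466128 values were 0 reads. The TPM values were deposited by the authors for 12943 rat genes, per the file headers. The planned design called the first table CPM, and the test it named was kept.

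limma 3.58.1 (R 4.3.3, trend on) was fitted to log2(CPM + 0.5), with fold changes on that scale, keeping genes that reached 1 CPM in 4 or more libraries. All 36 libraries were in 1 fit with 27 residual degrees of freedom, and Benjamini-Hochberg adjusted p under 0.05 was called. All 34 genes passed the filter. The fit was tested on simulated data. edgeR 4.0.16 and DESeq2 1.42.0 on the recovered reads were alternatives (8941 and 8993 calls from D0 to D9, against 8917), along with other scalings, filters and pseudocounts, fits of 2 days, a replicate block and leaving out libraries. Intervals between libraries cover neither culture nor day effects that are shared. 1 D1 column carries no matching replicate number and was used as D1. No pair of libraries of a day agreed within sampling noise (lowest mean chi-square 1.95, where noise alone gives about 1). Libraries 2 and 4 of D11 gave 2.49 with each other and 40 to 56 with libraries 1 and 3. Libraries 3 and 4 of D12 gave 13.9 with each other and 163 to 168 with library 1. Library 1 of D10 gave 75.2 to 88.1 with the other libraries of its day. No sign was seen that the replicate numbers pair the samples. Library values are given for Kif20a and for the mitotic kinesins with the largest and smallest log2 change from D0 to D9. They are also given for the 3 transport kinesins highest by TPM at D9. The highest and lowest non-mitotic kinesin in each main comparison have them too. Partner lists name their largest and smallest change. Every kinesin is named, and further values of these were chosen after they were seen. The members and lists were chosen with earlier results of these data known.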

Additional observations from a re-analysis of the deposited data

Results flagged for a closer look

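In 81 sets of 4 libraries (9 kinesins on 9 days), 7 had 1 library far from the other 3 by Dixon's critical value for the gap as a share of the range. Chance gives about 5% of such sets. At D10, library 1 stood apart for 3 genes: Kif21b was 6.39 CPM there and 0.679 to 0.794 CPM in the others, Kif5b was 460 CPM against 329 to 339 CPM, and Kif1b was 1083 CPM against 935 to 959 CPM. At D11, Kif1c was 715 CPM in library 3 against 665 to 670 CPM, and Kif5a was 0.723 CPM in library 4 against 1.45 to 1.59 CPM. Kif5b was 343 CPM in library 2 of D2 against 376 to 379 CPM. Kif20a was 0.314 CPM in library 1 of D9, 4 reads, against 0.567 to 0.613 CPM. What sets these libraries apart was not tested.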

How the results depend on the processing

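The 9 falls (D0 to D9) and 9 rises (D9 to D18) of mitotic kinesins were called in each alternative run, leaving out each library included. For D0 to D18 the count of 4 became 9 with only the 2 days fitted and 9 without D10 to D12, alternatives of which the second was chosen after seeing the data, as was removing the offset. Fits of only the 2 days gave, over all genes, 5262 calls for D0 to D1 (1532 in the main fit), 7924 for D1 to D2 (5188), 4190 for D2 to D3 (1574), 114 for D9 to D10 (453), 1892 for D10 to D11 (3187), 1155 for D11 to D12 (4995) and 3576 for D12 to D18 (6111). In them mitotic calls were 1 for D9 to D10 (3), and transport calls 4 for D0 to D1 (0), 10 for D1 to D2 (4), 3 for D2 to D3 (0), 1 for D10 to D11 (3), 0 for D11 to D12 (6) and 6 for D12 to D18 (13). Without D10 to D12, all-gene calls were 3975 for D0 to D1 and 3720 for D2 to D3, and transport calls 3 for D0 to D1, 9 for D1 to D2, 2 for D2 to D3 and 10 for D3 to D9 (6). These fits differ in the libraries that set the spread. By TPM, mitotic calls for D12 to D18 were 7 (4), and transport calls 7 for D12 to D18 and 2 for D9 to D10 (0). For D9 to D10, quantile normalization gave 283 calls, a pseudocount of 0.1 gave 6 mitotic calls, and DESeq2 gave 1 transport call there and 1 for D0 to D1. The cause was not tested.

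Leaving out 1 library gave 229 to 426 calls for D9 to D10, 5 to 6 mitotic calls for D0 to D1, and transport calls of 2 to 4 for D1 to D2, 0 to 1 for D9 to D10 and 2 to 7 for D11 to D12. With the replicate number as a block (35 libraries), D0 to D1 gave 1002 calls. Same-numbered libraries correlated at -0.06 to 0.16 in their deviations (D0 and D9), -0.16 to 0.15 (D9 and D18) and -0.09 to 0.25 (D0 and D18). Libraries of other numbers gave -0.139 to 0.116, -0.165 to 0.169 and -0.284 to 0.25. These ranges overlap, so no sign of pairing was seen, which does not show that the samples were unpaired. Of the members' calls in the 3 main comparisons the block ended that of Kif3b from D0 to D18.

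Signs of some changes turned with the scaling or with 1 library left out. From D9 to D18, Kif3b and Kif16b were called higher by TPM (limma adjusted p 0.00361 and 0.0454). Quantile normalization called both lower (-0.21 and -0.33, limma adjusted p 0.00165 and 0.0101). By TPM, D0 to D9 gave -0.10 for Kif13a, -0.10 for Kif13b, -0.10 for Kif1a and -0.0347 for Kif1bp, and D9 to D18 gave 0.16 for Kif13b, 0.25 for Kif16b, 0.14 for Kif1bp, 0.24 for Kif3b, 0.19 for Kif3c and 0.0289 for Kif5b. By TPM the median of all genes was -0.35 and 0.34 in these comparisons, and 27.1% and 77% of calls were higher, against 48.2% and 50.8% by CPM. Quantile normalization gave 0.10 for Kif16b and 0.025 for Kif3b (D0 to D9), -0.39 for Kif21b and -0.16 for Kif26b (D9 to D18) and 0.15 for Kif1b and -0.041 for Kif2a (D0 to D18). There the median was -0.13 from D9 to D18 and 40.2% of calls were higher. Median-of-ratios size factors gave 0.0116 for Kif3b (D0 to D9) and -0.00119 for Kif2a (D0 to D18). Leaving out 1 library gave -0.0591 to 0.0145 for Kif3b (D0 to D9), -0.10 to 0.30 for Kif21b (D9 to D18) and -0.0961 to 0.0634 for Kif2a (D0 to D18). In these libraries 1 read is 0.0211 to 0.0721 CPM, which limits what the lowest genes can show.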

Other observations

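The deposited values carry an offset of 0.5 read, which raises the lowest genes. Taking it off before the log left the 9 falls and the 9 rises of the mitotic kinesins called and changed the median fall of the mitotic list from -6.67 to -6.70. Kif14 and Kif24 had 4 and 7 reads over the 4 libraries of D9, and Kif27 had 2, so the sizes of their changes rest on few reads. The constant added to CPM before the log also shrinks changes of genes low on either day compared. Without the offset, the D9 mean of Kif2c was 0.158% of D0 and that of Kif20a 0.202%, though Kif2c had the smaller log2 change.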
